A study of Mus musculus with 72 samples.

Results

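The collagen genes of the mouse were described in embryonic stem cells with and without Nup133, a subunit of the Y-complex that forms the scaffold of the nuclear pore. All protein-coding genes whose symbol has the form Col, a number, the letter a and a number were taken, which gave 44 of the 45321 genes with a transcript in the count files, and 42 of the 44 passed the filter on low counts. RNA was measured in 18 samples, 3 control and 3 knockout samples at each of days 0, 2 and 3 of differentiation toward neuroectoderm. The control samples were 2 biological replicates of the line HM1, from which the knockout lines 14 and 19 were made, and the blastocyst-derived line 1A4 (Nup133+/+, Sox1gfp/+, XY). The knockout samples were lines 14 and 19 (Nup133-/-, both labelled XY, line 19 with the remark that its normal karyotype is likely) and the blastocyst-derived line 319 (Nup133merm/merm, Sox1gfp/+), which is labelled XX with extra copies of chromosomes 8 and 12. Line 319 therefore differs from 1A4 in more than Nup133.

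All lines were kept in serum and LIF on inactivated DR4 mouse embryonic fibroblasts, and the fibroblasts were removed by a plating step before day 0. Day 0 is that stem cell state, day 2 follows culture in the serum-free medium N2B27 on gelatin, and day 3 follows the addition of retinoic acid after day 2. The interval from day 0 to day 2 is called the first step below and that from day 2 to day 3 the second step. The comparisons ask how collagen RNA moved in each step, and whether it differed without Nup133. Each knockout line is 1 clone or 1 derivation, and 2 of the 3 control samples are cultures of 1 line. The p-values set a difference against the spread between these samples. They do not tell how far it would hold in other lines.

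Collagens are secreted or membrane-bound proteins whose chains wind around each other in a triple helix. Type IV collagens polymerise into the sheet at the heart of every basement membrane, the layer under epithelia that also holds laminin, nidogen and perlecan. In early embryos the epiblast and the extraembryonic endoderm rest on such a layer, and neuroepithelium later does so too. Fibrillar collagens bundle into the fibres of bone, skin and cartilage and are made chiefly by mesenchymal cells such as fibroblasts. FACIT collagens decorate fibre surfaces, collagen VI forms beaded filaments beside cells, multiplexins sit in basement membranes, and transmembrane collagens are anchored in the plasma membrane.

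Sequences before the start site are shown first for 5 genes whose values recur below. Col4a5 and Col4a6 are shown because they lie head to head on the X chromosome and both rose in the second step. Col24a1 had the largest rise of the first step in the controls, Col11a1 rose in the second step in both genotypes, and Col6a3 had the largest fall of the first step in the controls among genes with at least 10 CPM (counts per 1000000 counts over genes, after scaling). The sequences are RefSeq's for build GRCm38.p6, written 5′ to 3′ on the strand of the gene. Capitals mark every match, on either strand, to any of 6 short motifs, and adjoining matches can run together. The core promoter motif searched for was spelled TATAAA. The motif bound by the factor NF-Y was spelled CCAAT, and the GC box bound by SP1 was spelled GGGCGG. A half-site of nuclear receptors, the family of the retinoic acid receptors, was spelled AGGTCA. A motif of SOX factors was spelled ACAATG, and one of GATA factors was spelled AGATAA.
Col4a6 (chrX:141474077-141474326, minus strand): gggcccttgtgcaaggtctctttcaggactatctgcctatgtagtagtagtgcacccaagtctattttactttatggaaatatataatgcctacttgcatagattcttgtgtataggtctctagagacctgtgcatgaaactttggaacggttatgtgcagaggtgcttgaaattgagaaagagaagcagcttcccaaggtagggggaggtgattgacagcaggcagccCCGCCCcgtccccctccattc
Col4a5 (chrX:141475169-141475384, plus strand): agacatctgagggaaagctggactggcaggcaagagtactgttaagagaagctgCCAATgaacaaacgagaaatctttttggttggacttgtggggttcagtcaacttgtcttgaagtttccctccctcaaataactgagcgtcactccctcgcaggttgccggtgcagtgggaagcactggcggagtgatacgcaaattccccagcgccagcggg
Col24a1 (chr3:145292222-145292471, plus strand): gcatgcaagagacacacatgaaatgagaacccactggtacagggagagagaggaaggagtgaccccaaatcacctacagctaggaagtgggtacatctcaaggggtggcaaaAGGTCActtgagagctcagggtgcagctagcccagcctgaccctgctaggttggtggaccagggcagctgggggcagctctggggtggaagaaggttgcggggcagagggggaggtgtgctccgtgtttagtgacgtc
Col11a1 (chr3:114030290-114030539, plus strand): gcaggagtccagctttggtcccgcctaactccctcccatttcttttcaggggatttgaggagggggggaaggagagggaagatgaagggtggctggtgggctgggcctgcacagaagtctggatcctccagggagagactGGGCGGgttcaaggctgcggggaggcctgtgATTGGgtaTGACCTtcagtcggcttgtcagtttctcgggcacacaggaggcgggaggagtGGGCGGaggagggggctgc
Col6a3 (chr1:90843972-90844221, minus strand): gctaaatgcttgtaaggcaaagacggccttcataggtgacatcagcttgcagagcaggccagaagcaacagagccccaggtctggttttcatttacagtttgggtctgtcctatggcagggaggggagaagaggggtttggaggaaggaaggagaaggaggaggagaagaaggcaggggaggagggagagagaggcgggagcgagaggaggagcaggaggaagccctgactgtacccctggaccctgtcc

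The Col4a5 sequence holds 216 bases and stops 35 bases before the RefSeq start, and the others hold the 250 bases up to it. RefSeq's promoter entries covered 35 of the 44 collagen genes, with 38 windows in all. Col12a1, Col14a1, Col1a1, Col22a1, Col26a1, Col2a1, Col4a3, Col5a2 and Col9a3 had none. GGGCGG was present in 22 of the 38 collagen windows (57.9%) and in 32.7% of all 32851 windows of 250 bases. CCAAT was present in 13 (34.2%) against 33.9% of all windows, TATAAA in 5 (13.2%) against 12.4%, and AGGTCA in 8 (21.1%) against 14.0%. ACAATG was found in 1 window (2.63%) against 10.7%, and AGATAA in 2 (5.26%) against 9.99%. Within the 250 bases, Col24a1 held 1 kind of motif, AGGTCA, Col4a6 held GGGCGG, Col4a5 held CCAAT and, in the bases not printed, GGGCGG, and Col11a1 held CCAAT as well as GGGCGG and also AGGTCA. None of the searched letters occurred in the Col6a3 window. The starts of Col4a5 and Col4a6 lie 1343 bases apart, from chrX:141474076 to chrX:141475419. Those of Col4a1 and Col4a2, also head to head, overlap by 22 bases at chr8:11312805-11312826, so reads there could be assigned to either gene if strand was not used.

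Counts over genes summed to between 16466730 (line 19, day 2) and 54386782 (line 14, day 3) per sample. Nup133 measured 237, 245 and 323 CPM in the day 0 controls and 27.9, 37.1 and 23.9 CPM in the day 0 knockouts, and at days 2 and 3 the groups did not overlap either. Line 19 at day 2 stood apart from the other day 2 samples on the second principal component, and line 319 at day 2 did so on the first. Relative to HM1, line 319 had a median log2 difference over the genes of chromosome 8 of -0.49 to -0.35 across days, on a chromosome that its label gives as gained, and of 0.36 to 0.5 on chromosome 12 and 0.41 to 0.67 on the X chromosome. Line 19 had -0.38 to -0.21 on chromosome 8, and on chromosome 11 the range was -0.31 to -0.25 in line 14, -0.35 to -0.21 in line 19 and -0.36 to -0.27 in line 319. The control line 1A4 was also below HM1 on chromosome 11, with -0.18 to -0.14. Stem cell markers summed to 4893 to 5092 CPM in the controls and 5536 to 6390 CPM in the knockouts at day 0, and neural progenitor markers to 383 to 459.9 CPM in the controls at day 3. In these bulk samples, fewer cells of a type and less RNA per cell cannot be told apart.

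Values are given below for the controls in the order HM1 replicate 1, HM1 replicate 2 and line 1A4, and for the knockouts in the order line 14, line 19 and line 319. A gene was called changed at an adjusted p under 0.05 in edgeR's quasi-likelihood test, with Benjamini-Hochberg adjustment over all 18273 genes tested, and every adjusted p below comes from that test. Changes are log2 fold changes ± their standard error. Where the fit was repeated without 1 replicate or line, that sample was dropped at all 3 days, except where day 2 alone is named.

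**Figure D1:**
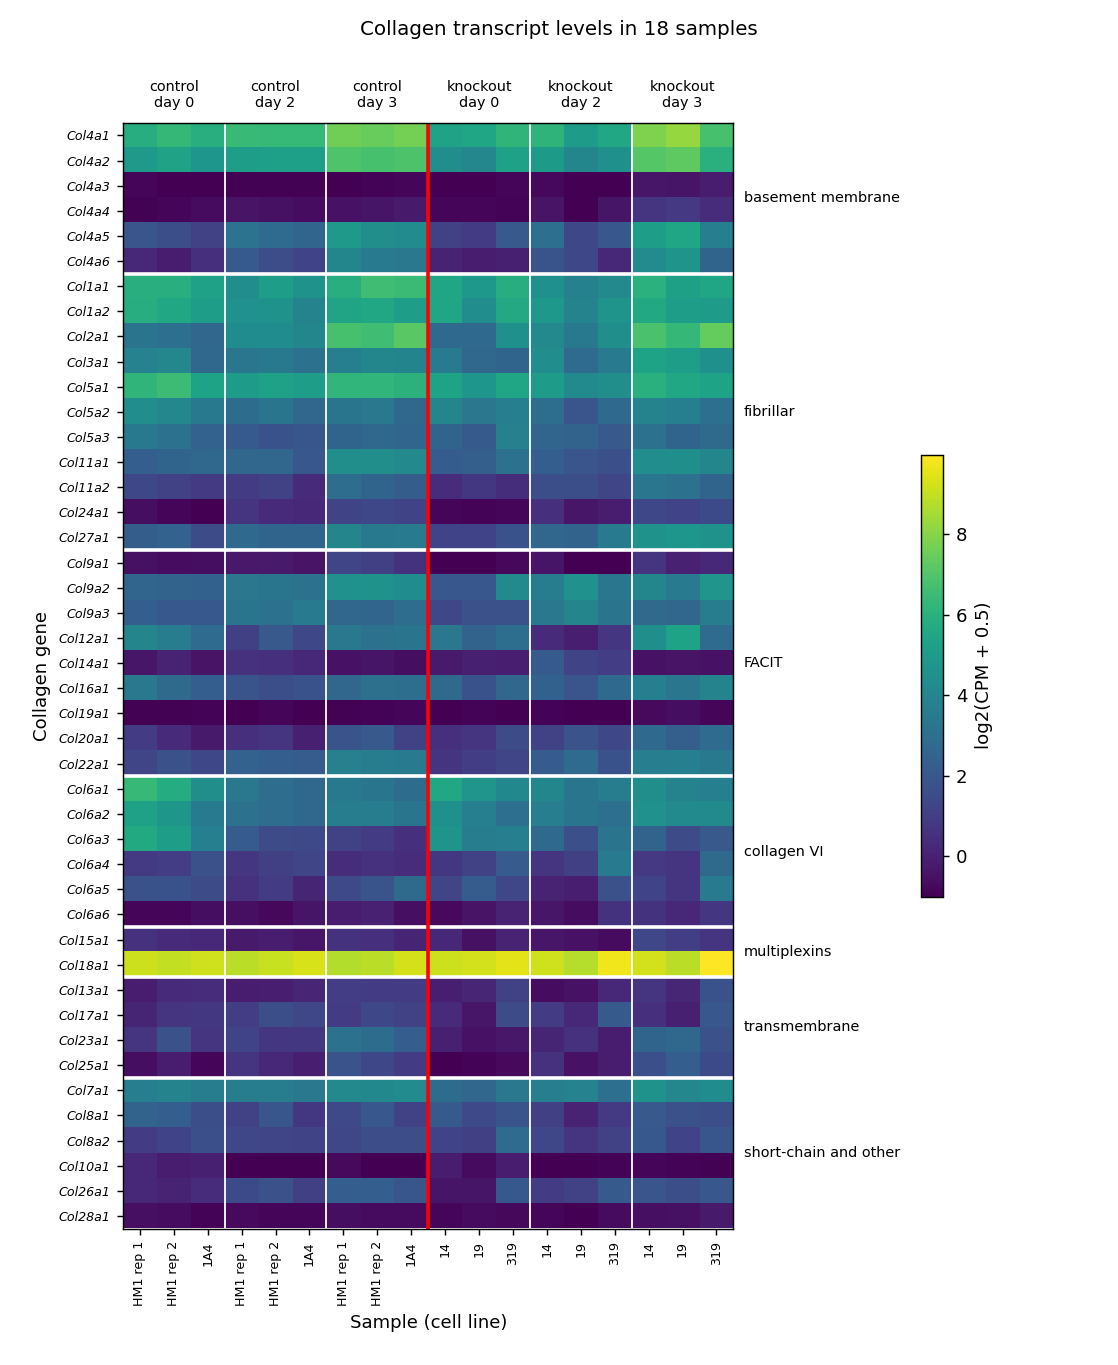
Levels of the 44 collagen genes (rows, grouped by class) in the 18 samples (columns), as log2 of CPM plus 0.5. Col18a1 is bright in every column, the Col4a1 and Col4a2 rows brighten at day 3 in all lines, and Col6a1 and Col6a3 are brightest in the HM1 columns at day 0.

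More collagen genes were called between days than between genotypes, as was the case over all genes. Between genotypes 1 of 42 was called on each of days 0, 2 and 3, against 0.854%, 1.6% and 5.19% of all genes. Of the 42 tested genes 35 were called in at least 1 step of either genotype, against 63.8% of all genes. The other 7, Col17a1, Col18a1, Col6a4, Col6a5, Col6a6, Col8a2 and Col9a2, were called in no comparison. In the controls, 9 of the 42 tested genes rose and 12 fell in the first step, against a background of 35.2% of all genes called, 19.7% higher and 15.5% lower. In the second step 21 rose and 1, Col14a1, fell, against a background of 21.4% called, 12.5% higher and 8.92% lower. The knockout lines gave 8 higher and 8 lower in the first step (35.9% of all genes called, 20.8% higher and 15.1% lower). In their second step 27 rose and 1, again Col14a1, fell (33.6% of all genes called, 17.6% higher and 16% lower). These shares of all genes also stand beside the counts by class and by marker list below. The median change of the 42 genes in the second step was 1.18 in the controls and 1.41 in the knockouts, where the medians over all genes were 0.004 and 0.003. With genes at the counting floor set to their bound, these medians were 1.138 and 1.381. In both genotypes 20 genes rose in the second step, which is 20 of the 21 in the controls and 20 of the 27 in the knockouts. Some fits without 1 replicate gave fewer calls, over the collagen genes and over all genes. The first control step had 21 calls, and 6 without HM1 replicate 1 or 9 without HM1 replicate 2 (all genes: 6439, 2833 and 3164). The second had 22, and 9 without either HM1 replicate or 13 without line 1A4. Over all genes it had 3918, and 1260 and 1215 without HM1 replicates 1 and 2 or 2392 without line 1A4. The first knockout step went from 16 calls to 10 without line 14 (all genes: 6561 to 3813).

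**Figure D2:**
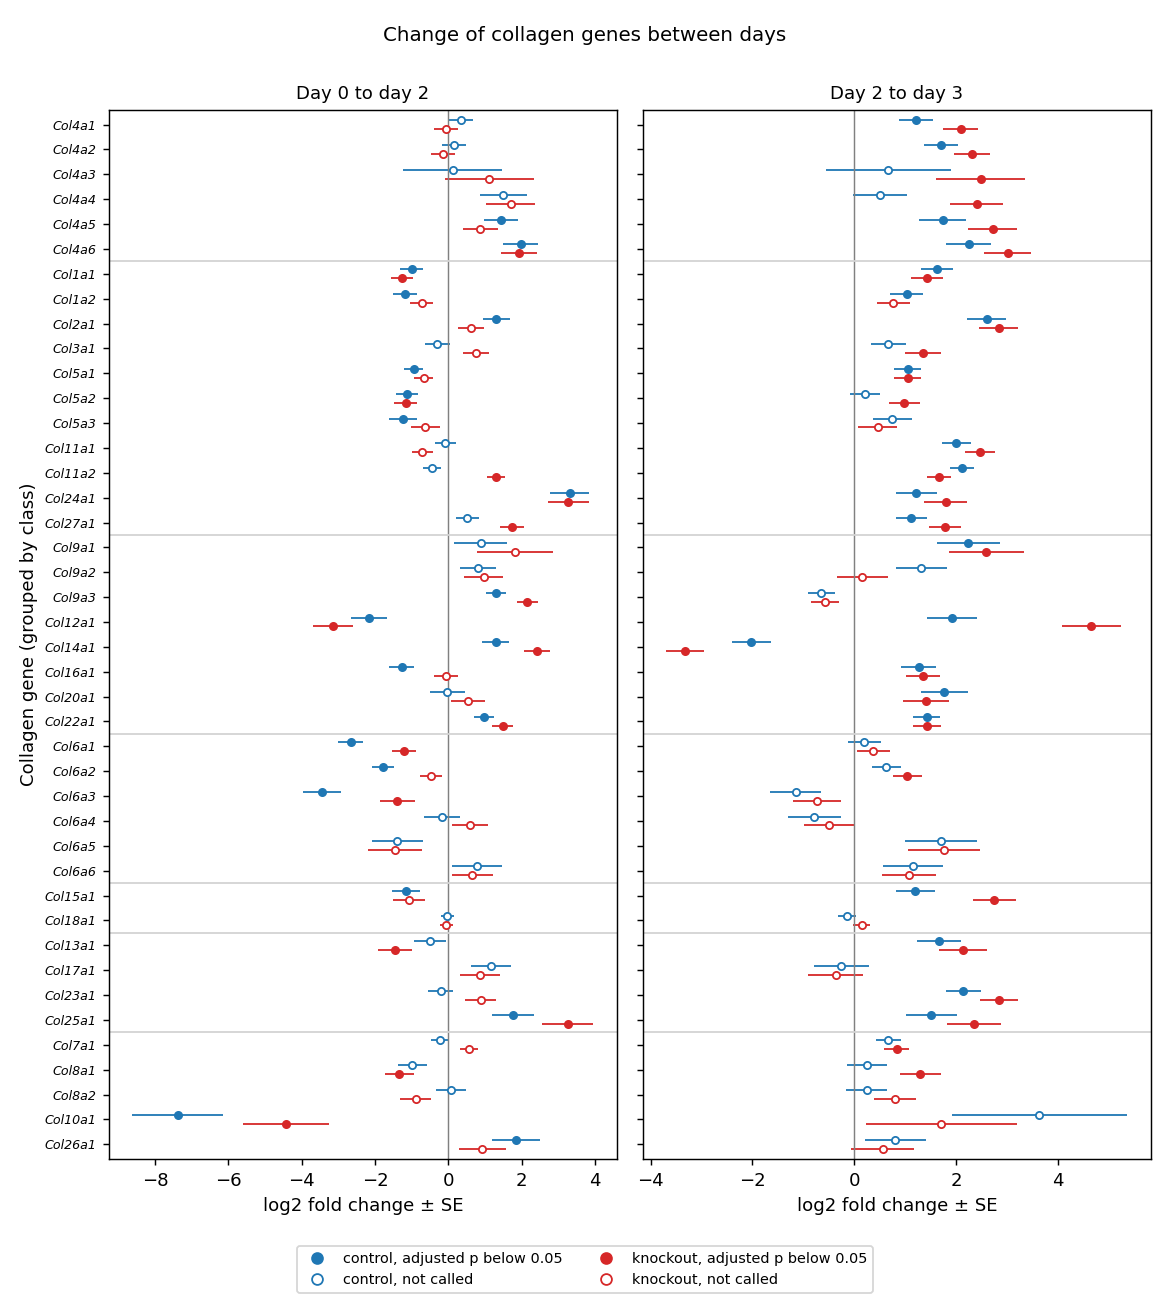
Log2 fold changes with standard errors of the 42 tested collagen genes in the first step (left) and the second step (right), in controls (blue) and knockouts (red), with filled points for called changes. In the right panel 21 control and 27 knockout points are filled above 0 and only Col14a1 is filled below 0 in either genotype.

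The basement membrane collagens, all of type IV, rose at day 3. In the second step 4 of 6 rose in the controls and 6 of 6 in the knockouts, with median changes of 1.46 and 2.45. In the first step Col4a5 and Col4a6 rose in the controls and Col4a6 in the knockouts, and none fell. Summed over the class, the level was 127 ± 3.44 CPM (SD, n = 3) in controls at day 2 and 342 ± 26.9 CPM at day 3, and in knockouts 79.3 ± 30.5 and 379 ± 171 CPM.

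Col4a1 encodes the most widespread type IV chain and lies on chromosome 8 (chr8:11198423-11312826 in GRCm38, minus strand, 52 exons). Col4a1 measured 57.1, 78 and 57.8 CPM at day 0, 83.5, 80.1 and 81.3 CPM at day 2 and 191, 169 and 207 CPM at day 3 in the controls. In the knockouts Col4a1 measured 39.7, 42.8 and 71.6 CPM at day 0, 70.6, 32 and 46.7 CPM at day 2 and 228, 305 and 109 CPM at day 3. All day 3 samples lay above all day 2 samples within each genotype, while at day 3 the knockout values reached on both sides of the controls, with line 319 lowest and line 19 highest. The change in the second step was 1.21 ± 0.33 (adjusted p = 0.016) in the controls and 2.09 ± 0.34 (adjusted p = 3.6e-04) in the knockouts. Its partner Col4a2 (chr8:11312805-11449287, plus strand) supplies the second chain of the common type IV trimer. Col4a2 measured 30.2, 39.5 and 26.4 CPM at day 0, 35.2, 35.9 and 36.2 CPM at day 2 and 124, 109 and 118 CPM at day 3 in the controls. In the knockouts Col4a2 measured 20.9, 16.5 and 38.6 CPM at day 0, 30.9, 15.8 and 22.3 CPM at day 2 and 133, 151 and 62.8 CPM at day 3. The order of the lines at day 3 was the one seen for Col4a1. Col4a2 rose by 1.71 ± 0.34 (adjusted p = 0.002) in the controls and 2.31 ± 0.35 (adjusted p = 1.7e-04) in the knockouts.

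Col4a5 and Col4a6 encode chains of basement membranes in kidney, smooth muscle and other organs, and lie on the X chromosome (chrX:141475385-141689234, plus strand, and chrX:141165403-141474076, minus strand). Col4a5 measured 3.25, 2.6 and 1.76 CPM at day 0, 8.43, 6.65 and 5.5 CPM at day 2 and 28.9, 20.8 and 19 CPM at day 3 in the controls. In the knockouts Col4a5 measured 1.75, 1.37 and 3.69 CPM at day 0, 7.47, 2.11 and 3.5 CPM at day 2 and 34.5, 44.9 and 12.9 CPM at day 3. Control values rose without overlap from day to day. The change was 1.44 ± 0.47 (adjusted p = 0.027) and 1.74 ± 0.46 (adjusted p = 0.013) in the 2 control steps, and 0.88 ± 0.48 (adjusted p = 0.17) and 2.72 ± 0.48 (adjusted p = 6.8e-04) in the knockouts, where the first was not called. Col4a6 measured 0.676, 0.433 and 0.878 CPM at day 0, 3.75, 2.51 and 1.8 CPM at day 2 and 15.7, 11.5 and 10.1 CPM at day 3 in the controls. In the knockouts Col4a6 measured 0.549, 0.395 and 0.469 CPM at day 0, 3.06, 2.11 and 0.692 CPM at day 2 and 19, 25.3 and 5.28 CPM at day 3. It was below 1 CPM in all day 0 samples and above 5 CPM in all day 3 samples. Col4a6 rose in both steps in both genotypes, by 1.97 ± 0.48 (adjusted p = 0.0051) and 2.25 ± 0.44 (adjusted p = 0.0018) in the controls and 1.94 ± 0.5 (adjusted p = 0.007) and 3.01 ± 0.46 (adjusted p = 2.0e-04) in the knockouts.

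Col4a3 and Col4a4, which form the mature glomerular network with Col4a5, were near the limit of detection. Col4a4 measured 0.215, 0.267 and 0.364 CPM in the day 3 controls and 1.12, 1.27 and 0.802 CPM in the day 3 knockouts, with no overlap, and was at most 0.259 CPM in any day 2 sample. It rose by 2.41 ± 0.52 (adjusted p = 0.0027) in the knockouts. Col4a3 had at most 3 counts in every control sample and measured 0.281, 0.275 and 0.388 CPM in the day 3 knockouts, where its second step was 2.49 ± 0.87 (adjusted p = 0.038) and, in the fit with the line as a block, had an adjusted p of 0.0545.

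The second-step rises of Col4a1, Col4a2, Col4a4, Col4a5 and Col4a6 in the knockouts were called in all 14 alternative fits. Fewer control calls were kept without 1 sample. The Col4a1 rise had an adjusted p of 0.13 without HM1 replicate 1, 0.11 without HM1 replicate 2 and 0.13 without line 1A4. For Col4a5 these were 0.12, 0.12 and 0.094 in the second step and 0.14, 0.14 and 0.14 in the first. The Col4a2 rise had 0.0509 without HM1 replicate 1. The first-step rise of Col4a6 had 0.11 and 0.058 without each HM1 replicate, and in the knockouts 0.13 without line 14. The knockout Col4a3 rise was called in only 5 of the 14 alternative fits. It had 0.092 without line 19, 0.1 without line 319, and 0.059, 0.077 and 0.0504 without HM1 replicates 1 and 2 and line 1A4. It had 0.066 without the day 2 sample of line 19 alone, 0.11 with HM1-derived lines only and 0.085 in DESeq2.

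**Figure D3:**
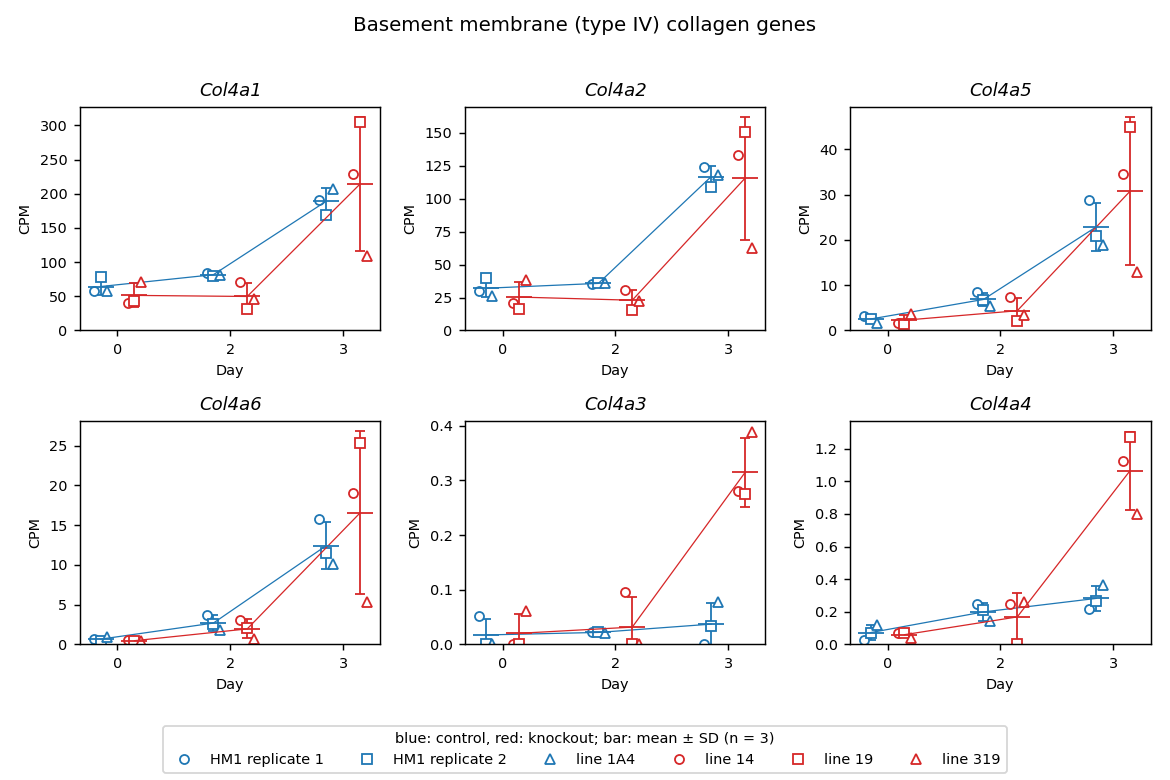
CPM of the 6 type IV genes by day, each sample as a point with the group mean ± SD (n = 3), controls in blue and knockouts in red; each panel has its own scale. Col4a1, Col4a2, Col4a5 and Col4a6 are highest at day 3 in both genotypes, and among the knockouts line 319 is the lowest point of these 4 at day 3.

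Markers of primitive and parietal endoderm, cells that lay down much type IV collagen in the embryo, are given beside these values. Their 10 genes, all tested, summed to 30.5 to 43.1 CPM in controls at day 0, 24.3 to 25.8 CPM at day 2 and 60.9 to 69.4 CPM at day 3. The knockout sums were 24.5 to 51.9, 21 to 39.5 and 80.1 to 91.6 CPM. In the controls the day 2 sums lay below the day 0 sums, and the knockout sums of days 0 and 2 overlapped. From day 2 to day 3, 6 of 10 rose in each genotype (Sox7, Sox17, Gata6, Foxa2, Dab2 and Pdgfra). Of all genes 12.5% rose in that step in the controls and 17.6% in the knockouts. None of the 10 was at 0 in a whole group. Endothelial markers (4 genes, all tested) summed to 37.2 to 50.4 CPM at day 2 and 26.5 to 46.9 CPM at day 3 in controls, and to 15.5 to 46.4 and 10.1 to 27.3 CPM in knockouts. The part of these cells in the type IV values was not tested.

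The fibrillar collagens split in the first step and rose in the second. Of 11 tested, 5 fell in the controls (Col1a1, Col1a2, Col5a1, Col5a2 and Col5a3) and 2 rose (Col24a1 and Col2a1). In the knockouts 2 fell (Col1a1 and Col5a2) and 3 rose (Col24a1, Col27a1 and Col11a2). Between days 2 and 3, 8 of 11 rose in the controls and 9 of 11 in the knockouts, and none fell. The class sum was 220.2 ± 61.5, 132 ± 18.5 and 379 ± 20.1 CPM (SD, n = 3) in the controls at days 0, 2 and 3, and 165 ± 53.2, 117 ± 31.7 and 361 ± 50.6 CPM in the knockouts.

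Col1a1 and Col1a2 encode the 2 chains of type I collagen, the main protein of bone and skin and a product of fibroblasts. Col1a1 measured 60.5, 58.8 and 38.1 CPM at day 0, 21.2, 34 and 23.6 CPM at day 2 and 57.9, 97.1 and 89 CPM at day 3 in the controls. In the knockouts Col1a1 measured 44, 28.1 and 56.3 CPM at day 0, 22.4, 13.8 and 17.3 CPM at day 2 and 64.6, 37 and 42.6 CPM at day 3. Every day 2 sample lay below every day 0 and day 3 sample of its genotype. Col1a1 changed by -1.0 ± 0.31 (adjusted p = 0.019) and then 1.63 ± 0.31 (adjusted p = 0.0016) in the controls, and by -1.26 ± 0.31 (adjusted p = 0.0054) and 1.42 ± 0.31 (adjusted p = 0.0029) in the knockouts. Col1a2 measured 55.8, 47.9 and 34.7 CPM at day 0, 22.7, 24 and 14.3 CPM at day 2 and 41.8, 47.4 and 34.9 CPM at day 3 in the controls. In the knockouts Col1a2 measured 42.9, 20.6 and 49.3 CPM at day 0, 28.2, 14.6 and 25.5 CPM at day 2 and 50.9, 34.8 and 32.6 CPM at day 3. Control values were lowest at day 2, and in the knockouts days 0 and 2 overlapped while day 3 lay above day 2. Col1a2 changed by -1.18 ± 0.32 (adjusted p = 0.0095) and 1.03 ± 0.32 (adjusted p = 0.031) in the controls, and by -0.73 ± 0.32 (adjusted p = 0.088) and 0.77 ± 0.32 (adjusted p = 0.074) in the knockouts, neither of which was called.

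Col3a1 encodes type III collagen, found with type I in soft tissues. Col3a1 measured 14.1, 16.2 and 5.9 CPM at day 0, 9.44, 10.5 and 8.24 CPM at day 2 and 12.7, 16.1 and 15.2 CPM at day 3 in the controls. In the knockouts Col3a1 measured 11.5, 5.93 and 5.22 CPM at day 0, 20.1, 6.64 and 10.5 CPM at day 2 and 40.3, 35 and 22.5 CPM at day 3. Control days 0 and 2 overlapped and neither control step was called, while the knockouts were highest at day 3, where Col3a1 rose by 1.34 ± 0.35 (adjusted p = 0.0093). Type V collagen starts the assembly of type I fibrils and is encoded by Col5a1, Col5a2 and Col5a3. Col5a1 measured 72.6, 90.6 and 40.1 CPM at day 0, 31.6, 38.2 and 33.8 CPM at day 2 and 74.6, 74.6 and 65.8 CPM at day 3 in the controls. In the knockouts Col5a1 measured 40.5, 26.9 and 43.9 CPM at day 0, 31.7, 18.4 and 20.9 CPM at day 2 and 61.1, 46.8 and 40.1 CPM at day 3. Control values at day 2 lay below those of days 0 and 3. Col5a1 changed by -0.94 ± 0.26 (adjusted p = 0.011) and 1.05 ± 0.26 (adjusted p = 0.0091) in the controls, and by -0.67 ± 0.26 (adjusted p = 0.058) and 1.05 ± 0.26 (adjusted p = 0.0069) in the knockouts. Col5a2 measured 20.8, 16.4 and 10.2 CPM at day 0, 6.85, 8.98 and 5.64 CPM at day 2 and 8.99, 10.02 and 5.99 CPM at day 3 in the controls. In the knockouts Col5a2 measured 15.4, 9.74 and 12.8 CPM at day 0, 7.22, 3.17 and 6.18 CPM at day 2 and 14.4, 12.8 and 7.48 CPM at day 3. Day 2 values lay below day 0 values in each genotype. The first-step change was -1.12 ± 0.3 (adjusted p = 0.0092) in the controls and -1.16 ± 0.31 (adjusted p = 0.0082) in the knockouts, where it rose again by 0.98 ± 0.31 (adjusted p = 0.023). Col5a3 fell from 7.82 ± 2.7 to 3.35 ± 0.446 CPM (SD, n = 3) in the first control step, a change of -1.24 ± 0.38 (adjusted p = 0.02).

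The genes of cartilage fibrils were highest at day 3. Col2a1 encodes type II collagen, the main collagen of cartilage and notochord, which early neuroepithelium also transcribes. Col2a1 measured 8.79, 7.64 and 5.62 CPM at day 0, 19.997, 19.5 and 15.8 CPM at day 2 and 109, 97.7 and 142 CPM at day 3 in the controls. In the knockouts Col2a1 measured 6.21, 6.3 and 21.9 CPM at day 0, 17.3, 10.2 and 21.9 CPM at day 2 and 113, 77.8 and 167 CPM at day 3. Each day 3 sample exceeded every day 2 sample of its genotype more than 3-fold, and at day 0 line 319 stood above the other lines. The change of Col2a1 was 1.31 ± 0.37 (adjusted p = 0.012) and 2.6 ± 0.38 (adjusted p = 1.8e-04) in the controls, and 0.62 ± 0.37 (adjusted p = 0.2) and 2.84 ± 0.38 (adjusted p = 7.1e-05) in the knockouts. Col11a1 encodes a chain of type XI collagen, which sits inside cartilage fibrils. Col11a1 measured 4.37, 5.24 and 5.86 CPM at day 0, 5.66, 5.7 and 3.39 CPM at day 2 and 20.8, 21 and 17.3 CPM at day 3 in the controls. In the knockouts Col11a1 measured 4.08, 4.53 and 7.99 CPM at day 0, 4.35, 3.17 and 2.72 CPM at day 2 and 20.5, 21.3 and 15.7 CPM at day 3. Days 0 and 2 overlapped and day 3 lay above both. Its second step was 2.01 ± 0.28 (adjusted p = 1.4e-04) in the controls and 2.47 ± 0.29 (adjusted p = 2.4e-05) in the knockouts. Col11a2, the next type XI chain, had means of 1.29 and 5.52 CPM at days 2 and 3 in the controls and rose by 2.12 ± 0.24 (adjusted p = 1.8e-05). In the knockouts Col11a2 rose in both steps, by 1.29 ± 0.25 (adjusted p = 8.3e-04) and 1.66 ± 0.24 (adjusted p = 1.1e-04).

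Chondrocyte and notochord markers (6 genes, all tested) summed to 24.8 to 32.2 CPM in controls at day 2 and 23.9 to 28.8 CPM at day 3, and 8.9 to 23.3 and 12.4 to 35.2 CPM in knockouts. Sox9, a transcription factor that activates Col2a1 in cartilage, was the only 1 of the 6 to rise in each genotype in that step, from 2.22 to 6.84 CPM in the controls. Of the others 1 fell in the controls and none in the knockouts. Their part in the Col2a1 values was not tested.

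Col27a1 and Col24a1 encode the fibrillar chains of a separate branch of the family. Col27a1 measured 4.21, 5.0 and 2.35 CPM at day 0, 6.13, 5.35 and 5.35 CPM at day 2 and 15.3, 10.3 and 11.1 CPM at day 3 in the controls. In the knockouts Col27a1 measured 1.78, 1.81 and 2.94 CPM at day 0, 5.74, 5.2 and 11 CPM at day 2 and 23.7, 26.7 and 24 CPM at day 3. At day 3 the 3 knockout samples lay above the 3 controls, a difference of 1.02 ± 0.31 (adjusted p = 0.064) that was not called. That difference had an adjusted p of 0.016 in a fit of the day 3 samples alone. It had 0.026 without the day 2 sample of line 19 and 0.013 in DESeq2. Col27a1 changed by 0.52 ± 0.31 (adjusted p = 0.21) and 1.12 ± 0.31 (adjusted p = 0.016) in the controls, and by 1.74 ± 0.32 (adjusted p = 7.2e-04) and 1.78 ± 0.32 (adjusted p = 6.8e-04) in the knockouts. Col24a1 had a mean of 0.076 CPM at day 0, 0.844 CPM at day 2 and 1.95 CPM at day 3 in the controls, and 0.0587, 0.555 and 2.05 CPM in the knockouts. It rose by 3.32 ± 0.53 (adjusted p = 2.2e-04) and 1.22 ± 0.4 (adjusted p = 0.04) in the controls. Its first-step rise in the knockouts was at least 7.12-fold against a floor of 3 counts per sample (adjusted p = 4.0e-04), and its second step was 1.79 ± 0.42 (adjusted p = 0.0048).

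The second-step rises of Col1a1, Col2a1, Col11a1 and Col11a2 were called in all alternative fits in both genotypes, and those of Col3a1, Col5a1, Col24a1 and Col27a1 in the knockouts. Several first-step falls were not called without 1 sample. In the controls the fall of Col1a1 had an adjusted p of 0.2, 0.058 and 0.056 without HM1 replicate 1, HM1 replicate 2 and line 1A4. Without HM1 replicates 1 and 2 in turn, the falls had 0.1 and 0.059 for Col1a2, 0.15 and 0.14 for Col5a1, 0.17 and 0.054 for Col5a2, and 0.16 and 0.16 for Col5a3. The knockout falls had 0.0516 without line 319 for Col1a1 and 0.0508 without line 14 for Col5a2.

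Among the control rises, that of Col2a1 in the first step had an adjusted p of 0.066 and 0.096 without HM1 replicates 1 and 2. The same fits gave, for the second step, 0.13 and 0.073 for Col5a1 and 0.17 and 0.094 for Col27a1. Without HM1 replicate 1, HM1 replicate 2 and line 1A4 the second step had 0.15, 0.18 and 0.14 for Col1a2 (and 0.0508 without line 14), and 0.13, 0.29 and 0.11 for Col24a1 (and 0.056 without line 14). The knockout rise of Col5a2 had 0.093 without line 14, 0.0532 without line 19, 0.064 without the day 2 sample of line 19 alone, and 0.0507 and 0.052 without HM1 replicates 1 and 2.

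Fibroblast markers stand beside these values, because fibroblasts served as feeders. Of 12 listed markers 10 passed the filter. Lum was at most 0.234 CPM and Fap at most 0.440 CPM in any sample, and Dcn, a defining product of fibroblasts, lay between 0.116 and 1.66 CPM. The list summed to 95.1 to 237, 168 to 221 and 182 to 289.7 CPM in the controls at days 0, 2 and 3, and to 47.7 to 99.2, 46.2 to 114 and 57.4 to 90.7 CPM in the knockouts, and in each group's mean most of it came from the smooth muscle genes Acta2, Tagln and Cnn1. In the first step 2 of 10 fell in the controls, Prrx1 with a change of -3.01 ± 0.32 and Pdgfrb with -0.65 ± 0.2, and 3 rose (Thy1, Cnn1 and Dcn). Of all genes 15.5% fell and 19.7% rose in that step. Prrx1, a mesenchymal transcription factor, had means of 8.09, 1.0 and 1.62 CPM in the controls. In the knockouts 4 fell (Postn, Prrx1, Acta2 and Pdgfrb) and 3 rose, against 15.1% and 20.8% of all genes. In the second step Pdgfrb rose and Thy1 fell in both genotypes, and Postn rose in the knockouts. The part of feeder RNA in the fibrillar values was not tested.

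**Figure D4:**
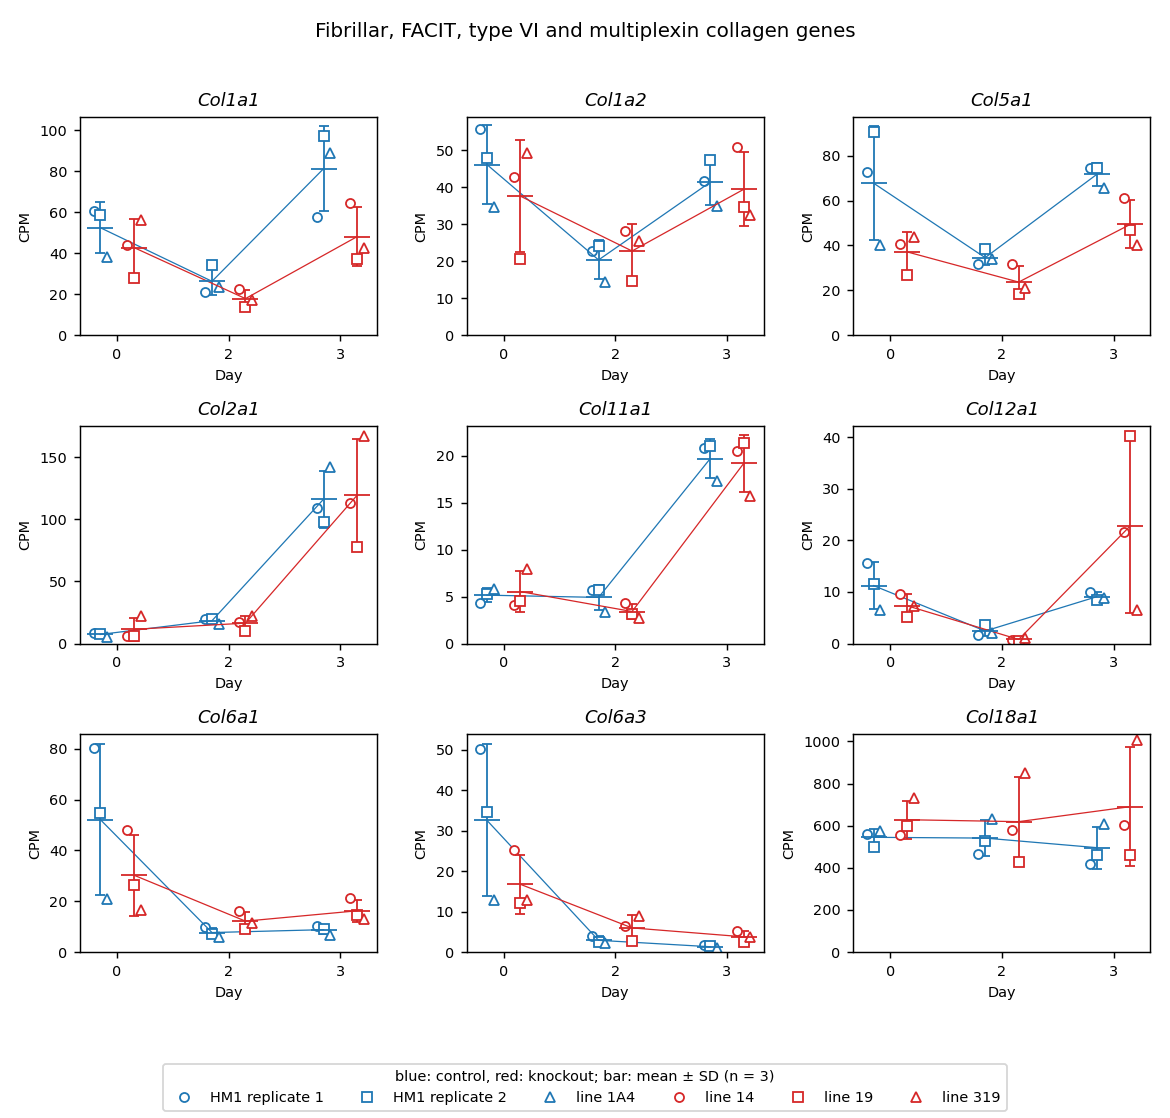
CPM by day of Col1a1, Col1a2, Col5a1, Col2a1, Col11a1, Col12a1, Col6a1, Col6a3 and Col18a1, each sample as a point with the group mean ± SD (n = 3), controls in blue and knockouts in red; each panel has its own scale. Col1a1, Col1a2, Col5a1 and Col12a1 dip at day 2, Col2a1 and Col11a1 climb at day 3, and Col6a1 and Col6a3 are highest at day 0.

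The main collagen VI genes fell in the first step of the controls. Of 6 tested genes, Col6a1, Col6a2 and Col6a3, which encode the common trimer, fell in the controls, and Col6a1 and Col6a3 fell in the knockouts. The median first-step change of the class was -1.58 in the controls and -0.84 in the knockouts. Col6a1 measured 80.6, 55 and 21 CPM at day 0, 9.86, 7.11 and 6.02 CPM at day 2 and 10.4, 9.18 and 6.82 CPM at day 3 in the controls. In the knockouts Col6a1 measured 47.9, 26.3 and 16.7 CPM at day 0, 16, 8.97 and 11.5 CPM at day 2 and 21.2, 14.6 and 12.9 CPM at day 3. The day 0 values fell apart by line, with both HM1 replicates above the other 4 samples, and at day 3 all knockout samples lay above all controls. The first-step change of Col6a1 was -2.66 ± 0.34 (adjusted p = 3.9e-05) in the controls and -1.2 ± 0.33 (adjusted p = 0.01) in the knockouts.

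Col6a2 (chr10:76595762-76623630) neighbours Col6a1 (chr10:76708792-76726168). Col6a2 measured 38.6, 27.6 and 11.2 CPM at day 0, 8.36, 7.05 and 5.8 CPM at day 2 and 11.9, 12 and 9.01 CPM at day 3 in the controls. In the knockouts Col6a2 measured 22, 12.8 and 7.53 CPM at day 0, 12.5, 9.2 and 7.48 CPM at day 2 and 22.7, 18 and 18.1 CPM at day 3. At day 3 each knockout sample lay above each control. Col6a2 fell by 1.77 ± 0.3 (adjusted p = 3.1e-04) in the controls, and in the knockouts the first step was -0.47 ± 0.29 (adjusted p = 0.22), not called, and the second 1.04 ± 0.29 (adjusted p = 0.013). Without the background term the second had an adjusted p of 0.061. Col6a3 encodes the largest chain (chr1:90765923-90843971). Col6a3 measured 50.2, 34.7 and 12.8 CPM at day 0, 4.07, 2.42 and 2.2 CPM at day 2 and 1.67, 1.37 and 0.885 CPM at day 3 in the controls. In the knockouts Col6a3 measured 25.2, 12.1 and 12.9 CPM at day 0, 6.31, 2.71 and 8.86 CPM at day 2 and 5.21, 2.37 and 3.7 CPM at day 3. Line 1A4 had about the same day 0 level as lines 19 and 319, and both HM1 replicates were the highest. Its first step was -3.44 ± 0.51 (adjusted p = 1.2e-04) in the controls and -1.38 ± 0.48 (adjusted p = 0.034) in the knockouts. Col6a4, Col6a5 and Col6a6, encoded side by side on chromosome 9, were called in no step and lay between 0.0721 and 11.2 CPM.

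The control falls of Col6a1, Col6a2 and Col6a3 were called in all alternative fits. In the knockouts the Col6a1 fall had an adjusted p of 0.1 without line 14, and the Col6a3 fall had 0.24 without line 14, 0.11 without the day 2 sample of line 19 and 0.071 without HM1 replicate 2. Of the 10 fibroblast markers 2 fell and 3 rose in the same control step, as given above, and the control sums of days 0 and 2 overlapped. In the day 0 controls the marker sum was 225, 237 and 95.1 CPM, lowest in line 1A4, the line with the lowest Col6a1, Col6a2 and Col6a3 of that group. Between the HM1 replicates, the sum was higher in replicate 2, and Col6a1, Col6a2 and Col6a3 were higher in replicate 1. The part of feeder RNA in the collagen VI values was not tested.

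The FACIT collagens went both ways. Of 8 tested genes, 3 rose (Col9a3, Col14a1 and Col22a1) and 2 fell (Col12a1 and Col16a1) in the first step of the controls, against 19.7% and 15.5% of all genes. In the knockouts the same 3 rose and Col12a1 fell. In the second step 5 rose in each genotype (Col9a1, Col12a1, Col16a1, Col20a1 and Col22a1) and Col14a1 fell in both. Col12a1 encodes type XII collagen of tendon and fascia fibres (chr9:79598991-79718831). Col12a1 measured 15.6, 11.6 and 6.54 CPM at day 0, 1.6, 3.63 and 2.08 CPM at day 2 and 10.01, 8.38 and 8.88 CPM at day 3 in the controls. In the knockouts Col12a1 measured 9.63, 5.09 and 7.3 CPM at day 0, 0.76, 0.452 and 1.17 CPM at day 2 and 21.7, 40.3 and 6.57 CPM at day 3. The knockouts at day 2 lay below the controls at day 2, and at day 3 lines 14 and 19 lay above and line 319 below all controls. Col12a1 changed by -2.16 ± 0.49 (adjusted p = 0.0033) and 1.92 ± 0.49 (adjusted p = 0.011) in the controls, and by -3.14 ± 0.55 (adjusted p = 4.7e-04) and 4.66 ± 0.58 (adjusted p = 3.8e-05) in the knockouts.

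Col14a1, related in structure to type XII, had the opposite course at low levels. Col14a1 measured 0.286, 0.529 and 0.239 CPM at day 0, 0.989, 0.93 and 0.687 CPM at day 2 and 0.215, 0.267 and 0.156 CPM at day 3 in the controls. In the knockouts Col14a1 measured 0.377, 0.465 and 0.449 CPM at day 0, 3.82, 1.88 and 1.47 CPM at day 2 and 0.231, 0.24 and 0.233 CPM at day 3. Day 2 values lay above those of days 0 and 3 within each genotype. It changed by 1.29 ± 0.36 (adjusted p = 0.011) and -2.02 ± 0.38 (adjusted p = 0.0014) in the controls, and by 2.42 ± 0.35 (adjusted p = 8.5e-05) and -3.32 ± 0.37 (adjusted p = 1.3e-05) in the knockouts. Col16a1 encodes type XVI collagen of skin and cartilage. Col16a1 measured 9.88, 6.44 and 4.39 CPM at day 0, 3.12, 2.65 and 2.89 CPM at day 2 and 5.71, 7.75 and 7.39 CPM at day 3 in the controls. In the knockouts Col16a1 measured 6.34, 2.91 and 5.67 CPM at day 0, 4.79, 3.24 and 6.14 CPM at day 2 and 12.9, 9.3 and 14.3 CPM at day 3. Day 2 values were the lowest in the controls, and day 3 values the highest in the knockouts. Col16a1 changed by -1.27 ± 0.34 (adjusted p = 0.0081) and 1.26 ± 0.33 (adjusted p = 0.013) in the controls, and rose by 1.36 ± 0.33 (adjusted p = 0.0062) in the second step of the knockouts. Col22a1 encodes type XXII collagen of tissue junctions such as the end of a muscle. Col22a1 measured 1.92, 2.79 and 2.11 CPM at day 0, 4.94, 4.39 and 4.1 CPM at day 2 and 13.1, 11.9 and 11.2 CPM at day 3 in the controls. In the knockouts Col22a1 measured 1.1, 1.58 and 1.92 CPM at day 0, 4.05, 6.64 and 2.85 CPM at day 2 and 12.6, 12.8 and 10.3 CPM at day 3. The days did not overlap within either genotype, and Col22a1 rose by 0.98 ± 0.27 (adjusted p = 0.011) and 1.42 ± 0.27 (adjusted p = 0.0014) in the controls and 1.49 ± 0.28 (adjusted p = 8.1e-04) and 1.43 ± 0.27 (adjusted p = 0.0011) in the knockouts.

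Type IX collagen coats cartilage fibrils. Col9a2 had the highest mean of the FACIT genes and was called in no comparison. Col9a2 measured 5.41, 5.14 and 4.79 CPM at day 0, 9.59, 9.11 and 8.36 CPM at day 2 and 23.3, 24.3 and 19.7 CPM at day 3 in the controls. In the knockouts Col9a2 measured 3.5, 3.44 and 18.5 CPM at day 0, 11.7, 22.7 and 9.47 CPM at day 2 and 15.9, 10.7 and 25.6 CPM at day 3. The controls spanned a narrow range within each day, whereas the highest knockout sample was line 319 at days 0 and 3 and line 19 at day 2. Its second step was 1.32 ± 0.5 (adjusted p = 0.071) in the controls and 0.16 ± 0.5 (adjusted p = 0.83) in the knockouts. Col9a3 measured 4.29, 3.51 and 3.51 CPM at day 0, 9.1, 8.14 and 11.1 CPM at day 2 and 5.57, 5.44 and 7.05 CPM at day 3 in the controls. In the knockouts Col9a3 measured 2.13, 2.77 and 2.83 CPM at day 0, 9.87, 15.6 and 8.73 CPM at day 2 and 6.35, 5.66 and 11.7 CPM at day 3. Every day 2 sample lay above every day 0 sample. Col9a3 rose in the first step, by 1.31 ± 0.28 (adjusted p = 0.0019) in the controls and 2.16 ± 0.28 (adjusted p = 4.1e-05) in the knockouts. Exons of Col9a3 overlap those of Tcfl5 on the opposite strand, whose control mean went from 29.7 to 74.7 CPM in the same step, and without strand their reads cannot be told apart. Col9a1 and Col20a1 stayed below 2 and 7 CPM in all samples, and Col9a1 rose by 2.24 ± 0.62 (adjusted p = 0.017) and 2.59 ± 0.73 (adjusted p = 0.014) in the second step.

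The knockout changes of Col12a1, Col14a1 and Col22a1 in both steps were called in all alternative fits, as were the first-step rises of Col9a3 in both genotypes. In the controls the Col12a1 fall had an adjusted p of 0.089 without HM1 replicate 1, and its rise had 0.13, 0.0547 and 0.089 without HM1 replicate 1, HM1 replicate 2 and line 1A4. In the same order the first-step rise of Col22a1 had 0.17, 0.0525 and 0.065, and the rise of Col9a1 had 0.21, 0.16 and 0.079. The Col14a1 rise had 0.16 without HM1 replicate 1 and 0.065 without line 1A4. For Col16a1 the fall had 0.12 and 0.076 without HM1 replicates 1 and 2, and the rise had 0.19 without HM1 replicate 2 and 0.0513 without line 1A4. The Col20a1 rise had 0.085 and 0.12 without HM1 replicates 1 and 2 in the controls, and 0.13 without line 14 and 0.055 without HM1 replicate 2 in the knockouts.

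Col18a1 was the most abundant collagen transcript in every group. It encodes type XVIII collagen, a heparan sulfate proteoglycan of basement membranes from which endostatin is cleaved (chr10:77052178-77166548, minus strand). Col18a1 measured 561, 499 and 574 CPM at day 0, 463, 529 and 631 CPM at day 2 and 418, 460.3 and 608 CPM at day 3 in the controls. In the knockouts Col18a1 measured 557, 597 and 729.8 CPM at day 0, 580.3, 429 and 848 CPM at day 2 and 604, 462 and 1004 CPM at day 3. The days overlapped within each genotype and no step was called. Per kilobase of transcript its mean level over the 18 samples was 116 CPM, followed by 16.4 for Col4a1, 9.45 for Col2a1 and 9.01 for Col4a2. Col18a1 took 51.5% to 67.3% of the summed collagen CPM per kilobase in the day 0 controls, 61.2% to 70.6% at day 2 and 36.9% to 45.4% at day 3. In the knockouts the shares were 63% to 72.9%, 65% to 76.6% and 36.4% to 60.6%. The other multiplexin, Col15a1, had group means of 0.804, 0.36 and 0.841 CPM in the controls and rose by 2.75 ± 0.42 (adjusted p = 2.1e-04) in the second step of the knockouts. Its fall and rise in the controls, -1.15 ± 0.39 and 1.2 ± 0.38, had adjusted p-values of 0.25 and 0.3 without HM1 replicate 1, 0.12 and 0.21 without HM1 replicate 2, and 0.11 and 0.11 without line 1A4.

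Of the 4 transmembrane collagens, Col13a1, Col23a1 and Col25a1 rose in the second step in both genotypes, and Col17a1 was called in no step. Col23a1 encodes type XXIII collagen and lies on chromosome 11 (chr11:51289920-51583918). Col23a1 measured 1.09, 2.79 and 1.12 CPM at day 0, 1.82, 1.19 and 1.21 CPM at day 2 and 8.1, 6.78 and 4.32 CPM at day 3 in the controls. In the knockouts Col23a1 measured 0.48, 0.232 and 0.306 CPM at day 0, 0.589, 0.98 and 0.432 CPM at day 2 and 5.24, 5.97 and 2.79 CPM at day 3. Day 3 samples lay above all others within each genotype, and at day 0 each knockout lay below each control. Col23a1 rose in the second step by 2.14 ± 0.35 (adjusted p = 4.5e-04) in the controls and 2.84 ± 0.38 (adjusted p = 7.0e-05) in the knockouts, and both calls were kept in all alternative fits. Col25a1, made by neurons and found in amyloid plaques, had means of 0.215, 0.755 and 2.15 CPM in the controls and rose in both steps. In the fit with the line as a block its second control step had an adjusted p of 0.0514, against 0.039 without it. Without HM1 replicate 1 the control steps of Col25a1 had 0.32 and 0.19, without line 1A4 0.095 and 0.14, and the second step had 0.21 without HM1 replicate 2. Its first knockout step had 0.069 without line 14. Col13a1 rose by 1.67 ± 0.43 (adjusted p = 0.012) in the controls and 2.14 ± 0.47 (adjusted p = 0.0031) in the knockouts, and the control rise had 0.15 and 0.08 without HM1 replicates 1 and 2. The first-step fall of Col13a1 in the knockouts, -1.45 ± 0.48, had 0.13 without line 14, 0.0529 without line 19 and 0.054 without HM1 replicate 1.

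Among the short-chain and other collagens, Col7a1 had the highest mean. It encodes the anchoring fibrils that tie the epidermis to the dermis. Col7a1 measured 12.6, 14.7 and 12 CPM at day 0, 12.2, 11.5 and 9.98 CPM at day 2 and 17.4, 17.1 and 19 CPM at day 3 in the controls. In the knockouts Col7a1 measured 6.82, 5.74 and 10.1 CPM at day 0, 12.5, 13.9 and 7.48 CPM at day 2 and 24, 16.6 and 19.6 CPM at day 3. At day 0 each knockout sample lay below each control. Col7a1 rose in the second step of the knockouts, by 0.84 ± 0.24 (adjusted p = 0.016), a call with an adjusted p of 0.094 without line 14. Col8a1, a network collagen of vessels and cornea, fell by 1.33 ± 0.41 (adjusted p = 0.018) and rose by 1.3 ± 0.41 (adjusted p = 0.023) in the knockouts, with adjusted p-values of 0.081 and 0.081 without line 14, and 0.065 for the rise without the day 2 sample of line 19. Col10a1, the collagen of hypertrophic cartilage, measured 0.702, 0.433 and 0.479 CPM in the day 0 controls and had no count in the day 2 controls. Its fall was at least 8.16-fold in the controls (adjusted p = 5.1e-04), and at least 2.32-fold in the knockouts (adjusted p = 0.01, and 0.15 without line 14). Exons of Col10a1 overlap those of Nt5dc1 on the opposite strand. Col26a1 rose by 1.85 ± 0.65 (adjusted p = 0.037) in the first step of the controls, a call with 0.17 and 0.25 without HM1 replicates 1 and 2. Col19a1 and Col28a1 did not pass the filter, with at most 0.172 and 0.362 CPM in any sample.

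The enzymes and chaperones that build collagen were called in both directions in the first step and mostly upward in the second. Of 33 listed genes 32 were tested. In the controls 6 rose and 9 fell in the first step (19.7% and 15.5% of all genes), and 14 rose and 2 fell in the second (12.5% and 8.92%). In the knockouts 6 rose and 8 fell (20.8% and 15.1%), and then 17 rose and 3 fell (17.6% and 16%). The first-step rises were thus near the share of all genes. Procollagen C-proteinase enhancer Pcolce fell in the first step, with changes of -2.79 ± 0.24 in the controls and -2.68 ± 0.24 in the knockouts. The cross-linking oxidase Lox fell too, with -2.32 ± 0.5 and -2.5 ± 0.52. Peroxidasin, Pxdn, which forms the sulfilimine bond between type IV collagens, rose by 2.25 ± 0.26 and 2.51 ± 0.27. In the second step the tolloid-like procollagen protease Tll1 rose by 4.37 ± 0.44 in the controls and 4.88 ± 0.47 in the knockouts, and Colgalt2, a collagen galactosyltransferase, by 3.46 ± 0.8 and 3.25 ± 0.83. Loxl2 rose by 1.87 ± 0.25 in the controls, and P3h2, the prolyl 3-hydroxylase of type IV collagen, by 2.39 ± 0.28 in the knockouts.

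Other basement membrane genes (21, all tested) gave 3 higher and 5 lower in the first control step and 7 higher and 2 lower in the second. In the knockouts the counts were 5 and 8, then 10 and 2. All genes had 19.7% higher and 15.5% lower, then 12.5% and 8.92%, in the control steps, and 20.8% and 15.1%, then 17.6% and 16%, in the knockout steps, which also stand beside the receptor counts below. Fras1, which links epidermis to the basement membrane, rose by 3.19 ± 0.3 in the first step of the controls, and the nidogen gene Nid1 fell by 2.65 ± 0.36. The laminin gene Lama4 rose by 2.0 ± 0.29 and Lama1, the laminin chain of the early embryo, by 1.63 ± 0.3 in the second. Of 13 receptor genes 11 were tested, with 2 higher and 3 lower in the first control step and 4 and 2 in the second, and in the knockouts 2 and 4, then 5 and 0. The integrin gene Itga11, a fibrillar collagen receptor of mesenchymal cells, fell by 3.53 ± 0.38 and rose by 2.48 ± 0.38 in the controls. Itga2, an integrin chain that binds collagens I and IV, was higher at day 3 by at least 121-fold in the controls and 29.9-fold in the knockouts. Ddr2, a kinase that responds to fibrillar collagen, fell by 2.6 ± 0.34 in the first control step.

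Between genotypes 1 of 42 collagen genes was called on each day, and each time another one. At day 0 Col23a1 was lower in the knockouts, against a background of 0.854% of all genes called, 0.0657% higher and 0.788% lower. At day 2 Col14a1 was higher, with 1.6% of all genes called, 0.635% higher and 0.963% lower. At day 3 Col4a4 was higher, with 5.19% called, 2.75% higher and 2.44% lower. At an unadjusted p under 0.05 there were 10, 9 and 15 of 42 at days 0, 2 and 3, against 10.6%, 20.4% and 21.9% of all genes. The median difference, knockout against control, was -0.32 (-0.3001 with genes at their bound), -0.03 and 0.27 on the 3 days, where all genes had 0.01, 0.02 and 0.02.

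Col23a1 at day 0, with the values given above, differed by -2.27 ± 0.39 (adjusted p = 0.009). The adjusted p was 0.15 without HM1 replicate 2, which had the highest value, and 0.091 without line 14. The differences were then -1.82 and -2.42, and the day 0 calls over all genes went from 156 to 18 and 32. The differences of Col23a1 at days 2 and 3 were -1.17 ± 0.38 (adjusted p = 0.11) and -0.47 ± 0.33 (adjusted p = 0.43). Col23a1 lies on chromosome 11, where the medians of line 1A4 and of all knockout lines were below HM1. The part of that shift in its difference was not tested. Col14a1 at day 2 differed by 1.46 ± 0.33 (adjusted p = 0.038), with no overlap between the groups. That call was lost without each of 4 samples in turn. The adjusted p was 0.28, 0.25, 0.14 and 0.1 without HM1 replicate 1, HM1 replicate 2, line 1A4 and line 14. The differences were then 1.47, 1.45, 1.43 and 1.02. In the same fits the day 2 calls over all genes went from 292 to 22, 25, 117 and 656. Col4a4 at day 3 differed by 1.9 ± 0.48 (adjusted p = 0.036), and its adjusted p was 0.23, 0.26, 0.07 and 0.11 without the same 4 in turn. The differences were then 1.71, 1.86, 2.21 and 1.85, and the day 3 calls over all genes went from 948 to 37, 17, 354 and 461. Col4a3, the head-to-head neighbour of Col4a4 on chromosome 1, was at least 3.64-fold higher at day 3, a difference that was not called (adjusted p = 0.061). That difference had an adjusted p of 0.027 in the day 3 samples alone and 0.0303 without the day 2 sample of line 19.

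None of the 4 type IV genes of higher level was called between genotypes on any day, with differences at day 3 of 0.17 ± 0.33 (adjusted p = 0.82) for Col4a1, -0.02 ± 0.33 (adjusted p = 0.98) for Col4a2, 0.37 ± 0.45 (adjusted p = 0.68) for Col4a5 and 0.27 ± 0.42 (adjusted p = 0.76) for Col4a6. The 6 collagen VI genes had a median difference at day 3 of 1.08, and 5 of 6, all but Col6a5, had a difference above 0 with an unadjusted p under 0.05, but none was called. Col6a1 had 0.89 ± 0.33 (adjusted p = 0.12), Col6a2 0.87 ± 0.29 (adjusted p = 0.091) and Col6a3 1.57 ± 0.51 (adjusted p = 0.083). In a fit of the day 3 samples alone they were called, with adjusted p-values of 0.022, 0.017 and 0.031. Without the day 2 sample of line 19 these were 0.0494, 0.0446 and 0.027. DESeq2 called Col6a2 (0.033) and Col6a3 (0.018). Over all genes the day 3 calls went from 948 to 2546, 2994 and 2063 in these fits. With HM1-derived lines only, none of these genes was called. Col6a5 had 0.03 ± 0.67 (adjusted p = 0.99), and there lines 14 and 19 lay below each control and line 319 above. In the day 3 groups the fibroblast marker sums did not overlap and were lower in the knockouts, and 3 markers (Acta2, Postn and Tagln) were called lower at days 2 and 3. Of all genes 0.963% and 2.44% were called lower on those days. At day 3, 7 of the 10 markers had a difference below 0 and 3 above 0, among them Prrx1 with 0.77 ± 0.31 (adjusted p = 0.15), which was not called. Endoderm markers were higher at day 3 in the knockouts for 4 of 10 (Thbd, Pdgfra, Gata4 and Cubn), against 2.75% of all genes. The part of either in the collagen differences was not tested.

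Whether a step differed between genotypes was tested directly, and 0 of 42 collagen genes passed in either step by edgeR (background 0.0219% and 0.0383% of all genes). At an unadjusted p under 0.05 there were 10 in the first and 4 in the second step, against 7.16% and 8.9% of all genes. DESeq2 called 1 collagen gene in each, Col11a2 in the first and Col12a1 in the second, where it called 69 and 121 over all genes. The larger second-step changes of type IV genes in the knockouts were therefore not shown to differ from those in the controls. Among the other lists, the procollagen chaperone Serpinh1 was lower in the knockouts at day 0. Serpinh1 measured 63.1, 84.4 and 42 CPM in the day 0 controls and 29.3, 23 and 31 CPM in the knockouts, a difference of -1.18 ± 0.24 (adjusted p = 0.028). P3h2 was also lower at day 0, with a difference of -1.43 ± 0.31 (adjusted p = 0.042), so that 2 of the 32 biosynthesis genes were called lower and none higher. None of the 32 was called at days 2 and 3. At day 2 the proteoglycan gene Agrn differed by -1.03 ± 0.21 (adjusted p = 0.022) and the collagen receptor kinase Ddr1 by -0.65 ± 0.14 (adjusted p = 0.035), each the only call of its list, and at day 3 there was none in either list.

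**Figure D5:**
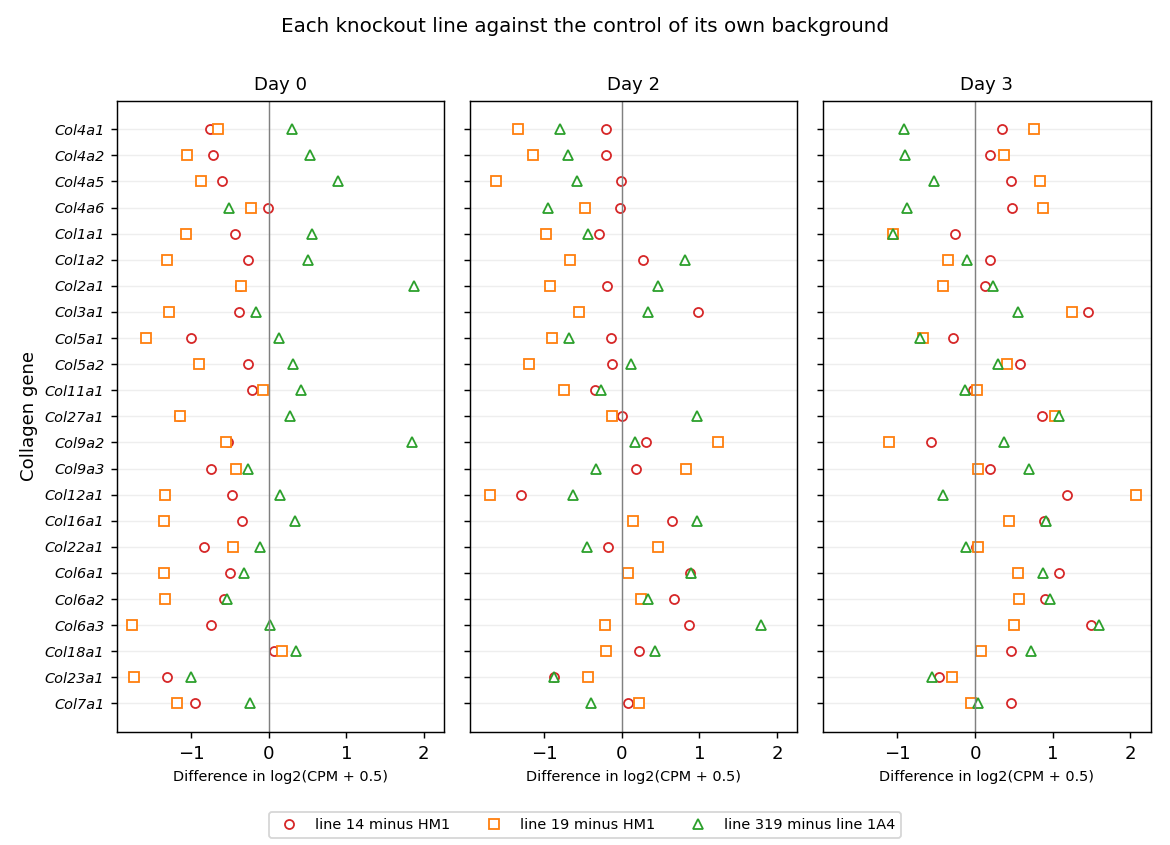
Difference of each knockout line from the control of its own background in log2 of CPM plus 0.5, at days 0, 2 and 3, for 23 collagen genes; lines 14 and 19 are set against the mean of the HM1 replicates and line 319 against 1A4. At day 3 the points of line 319 for Col4a1, Col4a2, Col4a5 and Col4a6 lie below 0 and those of lines 14 and 19 above 0.

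The 3 knockout lines were then set against the control of their own background. These differences are of log2(CPM + 0.5), which understates changes at low levels. Lines 14 and 19 share their control, the mean of the HM1 replicates, so their differences are given side by side.

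Type IV genes split by line at day 3. Col4a1 differed by 0.34 in line 14, 0.76 in line 19 and -0.92 in line 319. Col4a2 differed by 0.19 in line 14, 0.37 in line 19 and -0.9 in line 319. On the X chromosome, Col4a5 differed by 0.47 in line 14, 0.84 in line 19 and -0.53 in line 319, and Col4a6 by 0.47 in line 14, 0.87 in line 19 and -0.87 in line 319. Lines 14 and 19 were thus above HM1 in all 4 genes and line 319 was below 1A4 in all 4. Over all genes of a chromosome, the median difference from HM1, not from 1A4, was above 0 on the X chromosome in line 319 and below 0 on chromosome 8 in lines 19 and 319, and its part in these values was not tested. The difference between the backgrounds, line 319 against 1A4 relative to lines 14 and 19 against HM1, was -1.63 ± 0.51 (adjusted p = 0.32) for Col4a6, -1.49 ± 0.55 (adjusted p = 0.42) for Col4a1 and -1.19 ± 0.48 (adjusted p = 0.47) for Col4a2, and none was called (0.969%, 0.547% and 0.0219% of all genes were called at days 0, 2 and 3). Summed neural progenitor markers at day 3 were 741, 1072 and 326 CPM in lines 14, 19 and 319. Stem cell markers at day 3 summed to 465, 307 and 936 CPM in the same lines. The part of these in the line differences was not tested. Col12a1 followed the same order, with 1.19 in line 14, 2.07 in line 19 and -0.41 in line 319, and a background difference of -2.18 ± 0.76 (adjusted p = 0.39).

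Each line was above its control at day 3 in 17 of the 42 tested collagen genes and below it in 4. At day 3 the 3 lines had the same sign in 21 of the 42 tested collagen genes (50%), against 53.8% of all genes. The shares were 35.7% against 39.7% at day 0 and 47.6% against 35.7% at day 2. Col27a1 differed by 0.87 in line 14, 1.04 in line 19 and 1.08 in line 319. Col3a1 differed by 1.46 in line 14, 1.25 in line 19 and 0.55 in line 319. The collagen VI genes of the common trimer differed by 1.08 in line 14, 0.55 in line 19 and 0.87 in line 319 for Col6a1, 0.9 in line 14, 0.57 in line 19 and 0.97 in line 319 for Col6a2 and 1.5 in line 14, 0.51 in line 19 and 1.6 in line 319 for Col6a3. Col6a5 split instead, with -0.43 in line 14, -0.96 in line 19 and 0.74 in line 319. At day 0 the directions of Col6a1 and Col6a2 were the opposite, with -0.5 in line 14, -1.35 in line 19 and -0.32 in line 319 for Col6a1 and -0.58 in line 14, -1.34 in line 19 and -0.54 in line 319 for Col6a2. Col6a1 differed at day 0 by -0.75 ± 0.32 (adjusted p = 0.41) in the fit of all samples, which was not called.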

How the data were processed

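PolyA+ RNA from 18 samples was sequenced in 72 libraries, 4 technical libraries per sample, which differed by little more than sampling noise and were summed. The deposited files give raw read counts per transcript. Per the submitters' processing notes, bcl2fastq 2.17.1.14, STAR 2.4.0k, SAMtools and HTSeq were used with build mm10, and the role of each tool and the use of strand are not given in the sources used here. Of 110379 transcript identifiers 108214 matched the GENCODE annotation of GRCm38, and the rest held 1.44% to 2.48% of counts. Transcripts of a gene share reads (summing all of them gives 2.62 to 2.92 times the counts), so each gene was represented by its transcript with the highest total count.

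The model fitted to the counts was the robust quasi-likelihood model of edgeR 4.0.16, run with limma 3.58.1 in R 4.3.3 after TMM scaling and filterByExpr, with genotype and day as 6 groups and background (HM1-derived or blastocyst-derived) as covariate, over 18273 genes with 11 residual degrees of freedom. The biological coefficient of variation was 0.246. The adjusted p threshold was 0.05 (Benjamini-Hochberg), and the scripts were tested on simulated data. CPM are counts per 1000000 gene counts with TMM scaling. A fold against a group with at most 3 counts in every sample was bounded with 3 counts per sample, which covers counting error only. The difference between backgrounds was a test added after seeing the data, with 6 residual degrees of freedom.

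Same-numbered samples are the same line followed over days. Their deviations from the group means correlated above 0.1 in 16 of 18 pairs (from -0.088 to 0.40), and a fit with the line as a block was an alternative for the steps in time. Other alternatives were RLE scaling, no filter, no background term, HM1-derived lines only, the longest transcript, each day alone, DESeq2 1.42.0, line 19 left out at day 2, and each line or replicate left out. Genes described sample by sample were those called with a group mean of at least 10 CPM or highest in their class, and other genes of a list were named when called with at least 1 CPM, at most 4 per list and comparison. Members, lists and rules were chosen with earlier results of these data known.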

Additional observations from a re-analysis of the deposited data

Results flagged for a closer look

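At day 0, the difference of line 319 from 1A4 was set against that of lines 14 and 19 from HM1, and edgeR's test called 3 collagen genes, against 0.969% of all genes. The difference of the log2 fold changes, blastocyst-derived minus HM1-derived, was 3.25 for Col26a1 (adjusted p = 0.021). It was 2.355 for Col2a1 (adjusted p = 0.0471) and 2.43 for Col5a3 (adjusted p = 0.0475). Col26a1 measured 0.65, 0.553 and 0.798 CPM in HM1 replicate 1, HM1 replicate 2 and line 1A4, and 0.274, 0.279 and 3.53 CPM in lines 14, 19 and 319. Col5a3 measured 10.4, 8.1 and 4.99 CPM in the controls and 5.35, 3.81 and 13.3 CPM in the knockouts in the same order. In each of the 3 genes, line 319 lay above 1A4 and lines 14 and 19 below the mean of HM1. The blastocyst-derived side of the difference rests on 1 control and 1 knockout sample, whose spread is taken from the other samples. Line 319 is labelled with other sex chromosomes and extra chromosomes relative to 1A4, so an effect of Nup133 and one of the line cannot be told apart here.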

How the results depend on the processing

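Of the 90 calls of collagen genes, 43 were kept in all 14 alternatives and none changed sign, and 1116 of the 1260 pairs of a call and an alternative kept the call. Counts of calls moved with the setting. The fit used above called 156, 292 and 948 of all genes at days 0, 2 and 3. With HM1-derived lines only, 3 collagen genes were called at day 0, 0 at day 2 and 3 at day 3 (all genes: 313, 245 and 1121). Each day fitted alone gave 0, 0 and 9 genes (all genes: 244, 0 and 2546). Without the filter on low counts 0 genes were called at day 2 (all genes: 316). Without the background term there were 0 at day 2 and 0 at day 3 (all genes: 185 and 516). Without line 19 at day 2 there were 8 at day 3 (all genes: 2994). DESeq2 called 5 at day 2 and 5 at day 3 (all genes: 1406 and 2063). It called 1 in each test of whether a step differed between genotypes (all genes: 69 and 121). With 1 line or replicate left out, the counts ran from 0 to 3 at day 0, 0 to 2 at day 2, 0 to 4 at day 3, 6 to 26 and 9 to 29 in the 2 control steps, 10 to 23 and 24 to 31 in the 2 knockout steps, and 0 to 0 and 0 to 2 in the 2 tests of a difference between steps. Over all genes, the first control step fell from 6439 calls to 2833 without HM1 replicate 1 and 3164 without HM1 replicate 2. With the replicate block, that is the line, 23 and 22 genes were called in the control steps and 19 and 28 in the knockout steps, and 0 in either test of a difference, and it removed the call of Col25a1 and of Col4a3 given above and no other. No block could be fitted between genotypes, since no line is in both. With 3 samples a group, low collagens such as Col4a3, Col10a1 and Col24a1 are limited by counting depth. The choice of 1 transcript per gene leaves other isoforms unmeasured.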
